A study of Mus musculus with 3 samples.

Results

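The Wnt genes of E8.75 mouse embryos, a stage of early organ formation, were examined as 1 family of signalling genes: the Wnt ligands, their frizzled and Lrp receptors, the R-spondins, the secreted antagonists of the Sfrp and Dkk families, and the feedback and transcription factor genes Axin2, Notum, Nkd1, Nkd2, Lef1 and Tcf7. Members were taken by gene symbol alone, which gave 49 genes with 62 probes among 36983 genes and other transcripts with 55681 probes on the array. Of these, 46 genes were measured through 59 probes that lay well above background. Each of 3 arrays with 2 colours held RNA of embryos labelled Brpf1-deficient in the Cy5 channel and RNA of wild-type embryos in the Cy3 channel, and the arrays are numbered as pairs 1 to 3. The labels name no treatment. The labels give no allele, Cre driver, strain or sex, nor the number of embryos behind each RNA, so p-values measure only the spread between these 3 pairs. Brpf1 encodes a scaffold of histone acetyltransferase complexes.

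The measure throughout is the log2 ratio of Cy5 over Cy3 after background correction and loess normalization within each array, with a moderated standard error (SE) over 3 pairs from limma. It is positive where the Brpf1-deficient channel was the brighter. Because all arrays carry the dyes the same way round, genotype and dye cannot be told apart. The Brpf1 probe itself was brighter in Cy5, with log2 ratios of 2.01, 1.43 and 1.06 in pairs 1, 2 and 3 (SE of the mean 0.19, limma adjusted p = 0.0405), a 2.83-fold difference. Whether that probe lies in the disrupted part of the gene was not analysed here, so it does not check the labels, and every direction below belongs to the channel as labelled. The authors' deposited table runs the other way, at a correlation of -0.80 with these ratios across 39915 probes. Brpf1 stands at -1.55 there. Which genotype forms the numerator of that table is not given, so it cannot check the channel labels either. Markers of neural tube, somite, heart and tail bud, 4 genes each, were all measured, which fits the labelled whole embryo. So were 6 of 6 genes listed for visceral endoderm and yolk sac, 6 of 6 for decidua and 3 of 5 for trophoblast. Whether each listed gene is made only in its named tissue was not tested. Among all listed markers, limma called Myh6 of heart (-0.70, adjusted p = 0.0313), Uncx of somite (0.75, 0.0376) and Hbb-bh1 of primitive erythroid cells (1.28, 0.0418). Cy5 over Cy3 of summed levels was 0.746, 0.769 and 0.831 for heart in pairs 1, 2 and 3. For primitive erythroid markers it was 1.31, 2.34 and 2.25. The part of these tissues in the Wnt ratios was not tested.

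Wnt ligands are lipid-bearing secreted proteins that bind a frizzled receptor together with Lrp5 or Lrp6. Binding stops the breakdown of beta-catenin, which then switches on target genes with TCF and LEF factors. R-spondins strengthen the signal by keeping frizzled receptors on the cell surface, Sfrp proteins bind the ligands, Dkk proteins block the Lrp coreceptors, and Axin2, Notum and the Nkd proteins are made in response to the signal and dampen it. In the early mouse embryo the pathway extends the body axis from the tail bud, patterns the dorsal neural tube and midbrain, and acts in heart and neural crest formation.

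No Wnt gene passed the test over all genes. At an adjusted p of 0.05 in limma 0 of 46 members were called, against 1.38% of the 23555 genes tested (1.29% higher and 0.0934% lower in Cy5). The smallest adjusted p was 0.116, that of Fzd4. At an unadjusted p below 0.05 there were 7 members (15.2%, against 17.3% of all genes): Fzd4 was above 0 (8.23% of all genes were higher at that level), and Fzd7, Rspo4, Rspo3, Axin2, Fzd1 and Wnt2 were below it (9.12%). No member had a mean ratio of over 0.5 in size, as 3.93% of all genes did, and the means ran from -0.41 for Fzd7 to 0.49 for Fzd4.

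**Figure D1:**
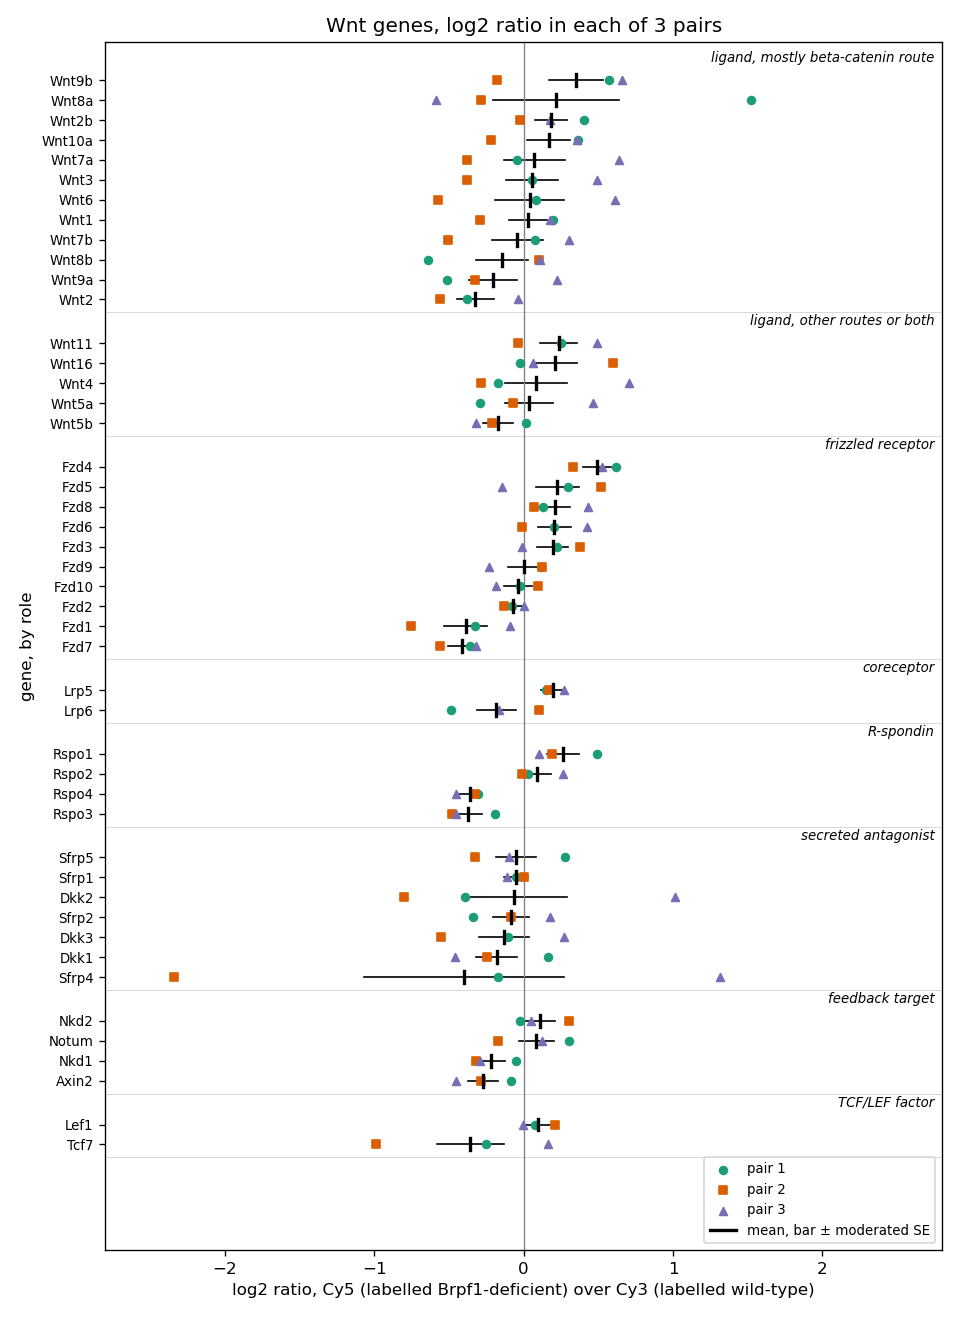
Log2 ratio of Cy5 (labelled Brpf1-deficient) over Cy3 (labelled wild-type) for the 46 measured Wnt genes, grouped by role. Coloured points are the 3 pairs, black ticks the means and black bars ± 1 moderated SE; Sfrp4 spans -2.34 to 1.31 and Wnt8a -0.58 to 1.52, while Rspo4 lies between -0.45 and -0.31.

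The family did not lean to either channel. Above 0 were 24 members and below it 22 (45.6% and 54.4% of all genes), with a median of 0.01, beside -0.02 over all genes. Only 11 members, 23.9%, had the same sign in all 3 pairs, against 43.4% of all genes. These were Fzd4, Fzd8, Lrp5 and Rspo1 above 0 (19.7% of all genes) and Fzd1, Fzd7, Wnt2, Rspo3, Rspo4, Axin2 and Nkd1 below 0 (23.8%). Pair by pair the median of the members was -0.00, -0.20 and 0.12 in pairs 1, 2 and 3. The median SD over pairs was 0.267 on the log2 scale for the members, beside 0.159 over all genes. Across the 46 members, which share the arrays and are not independent replicates, the ratios correlated at 0.25 between pairs 1 and 2, -0.08 between pairs 1 and 3 and -0.36 between pairs 2 and 3. The same correlations across all genes were 0.41, 0.33 and 0.15.

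Bright probes, where most of the calls of this data set lie, hold no Wnt gene. The mean log2 intensity of the members ran from 7.22 to 14.93, whereas 283 of the 326 called genes lay above 16.

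**Figure D2:**
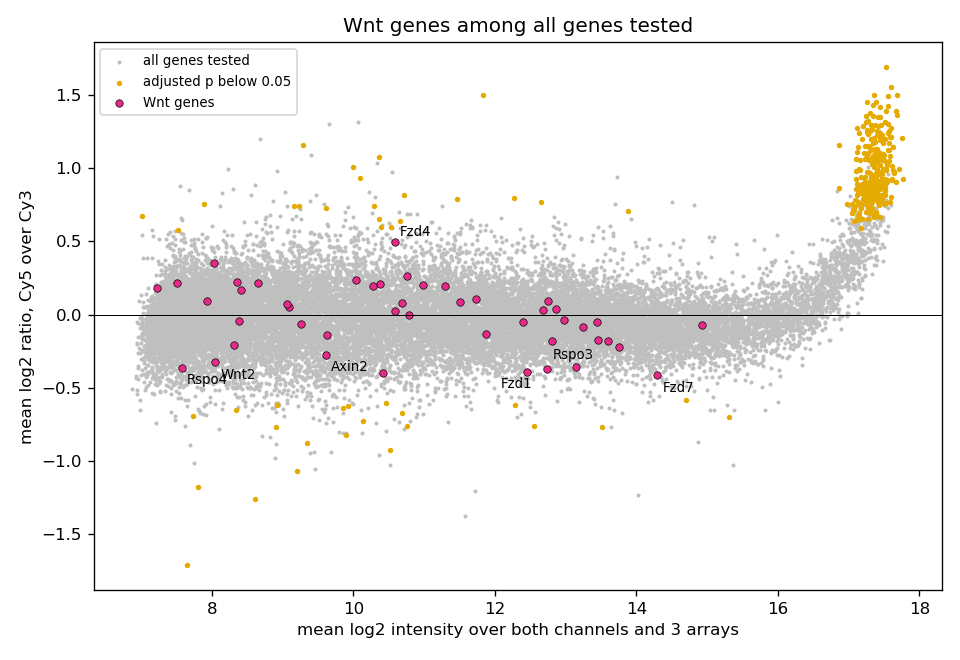
Mean log2 ratio of Cy5 over Cy3 against mean log2 intensity for all genes tested (grey), genes with an adjusted p below 0.05 (yellow) and the Wnt genes (pink). The Wnt genes lie below an intensity of 15 and within 0.5 of 0, to the left of the bright genes that curve upwards.

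Among the receptors, Fzd4 stood highest and Fzd7 lowest. Fzd4, a frizzled that also binds the vascular ligand norrin, had normalized log2 intensities of 11.21, 10.39 and 10.89 in Cy5 and 10.59, 10.06 and 10.37 in Cy3 in pairs 1, 2 and 3. Cy5 was the brighter channel in every pair, by log2 ratios of 0.62, 0.33 and 0.53. The mean was 0.49 ± 0.09 (SE, n = 3 pairs, 95% interval 0.25 to 0.73, limma adjusted p = 0.116), a 1.41-fold difference that did not pass. Of the endothelial markers, 2 of 4 lay above 0, with summed levels of 22278 to 24263 in Cy5 and 19899 to 25622 in Cy3. Of the visceral endoderm and yolk sac markers, 6 of 6 lay above 0, with summed levels of 533090 to 749180 in Cy5 and 334910 to 565060 in Cy3, and 0 of the 10 were below background. The part of either tissue in the Fzd4 ratio was not tested.

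Fzd7, a receptor found widely in early progenitor cells, had 13.95, 14.22 and 14.10 in Cy5 and 14.31, 14.78 and 14.42 in Cy3 in pairs 1, 2 and 3 on the log2 intensity scale. Cy3 was brighter in all 3 pairs, and the mean ratio was -0.41 ± 0.09 (limma adjusted p = 0.145). A second, dimmer Fzd7 probe gave the other sign in all pairs, with log2 ratios of 0.24, 0.57 and 0.03. The mean of both probes was -0.07, so the direction of Fzd7 rests on the choice of probe. Fzd1 had ratios of -0.32, -0.75 and -0.09 and a mean of -0.39 ± 0.14 (adjusted p = 0.274), with the size set mostly by pair 2. The other frizzled genes had means between -0.07 for Fzd2 and 0.22 for Fzd5. A second, dimmer Fzd2 probe had -0.11, -0.67 and -0.15 (mean -0.31), and the dimmer Fzd5 probe had a mean of 0.14. Fzd10, which marks the dorsal neural tube, had -0.03, 0.10 and -0.19 and a mean of -0.04 ± 0.09. Of the 10 frizzled genes, 0 passed, 6 lay above 0, and their median was 0.10.

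The coreceptors lay on opposite sides of 0. Lrp5 had ratios of 0.15, 0.17 and 0.27 (mean 0.20 ± 0.08, adjusted p = 0.303), which differ little between pairs. Lrp6, the more broadly required of the pair in the mouse embryo, had -0.49, 0.10 and -0.17 (mean -0.18 ± 0.13, adjusted p = 0.5), and its mean was -0.03 without pair 1 and -0.33 without pair 2. Its dimmer probe had a mean of 0.14.

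Rspo3 and Rspo4 had the lower ratios among the R-spondins. Rspo3, needed for vessel growth in the mouse placenta, had log2 intensities of 12.49, 12.67 and 12.51 in Cy5 and 12.68, 13.15 and 12.96 in Cy3. Every pair was brighter in Cy3, and the mean ratio was -0.37 ± 0.10 (adjusted p = 0.186), 1.30-fold brighter in Cy3. Rspo4, known from human nail formation, had 7.76, 7.16 and 7.23 in Cy5 and 8.07, 7.49 and 7.68 in Cy3, a mean ratio of -0.36 ± 0.08 (adjusted p = 0.158). It was well above background on 2 of 3 arrays in Cy5 and on 3 in Cy3, and the authors' deposited table lists it at -0.72 when turned to Cy5 over Cy3. Rspo1 lay on the other side, with ratios of 0.49, 0.19 and 0.10 (mean 0.26 ± 0.11, adjusted p = 0.304), and Rspo2 had a mean of 0.09 ± 0.09. None of the 4 passed.

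**Figure D3:**
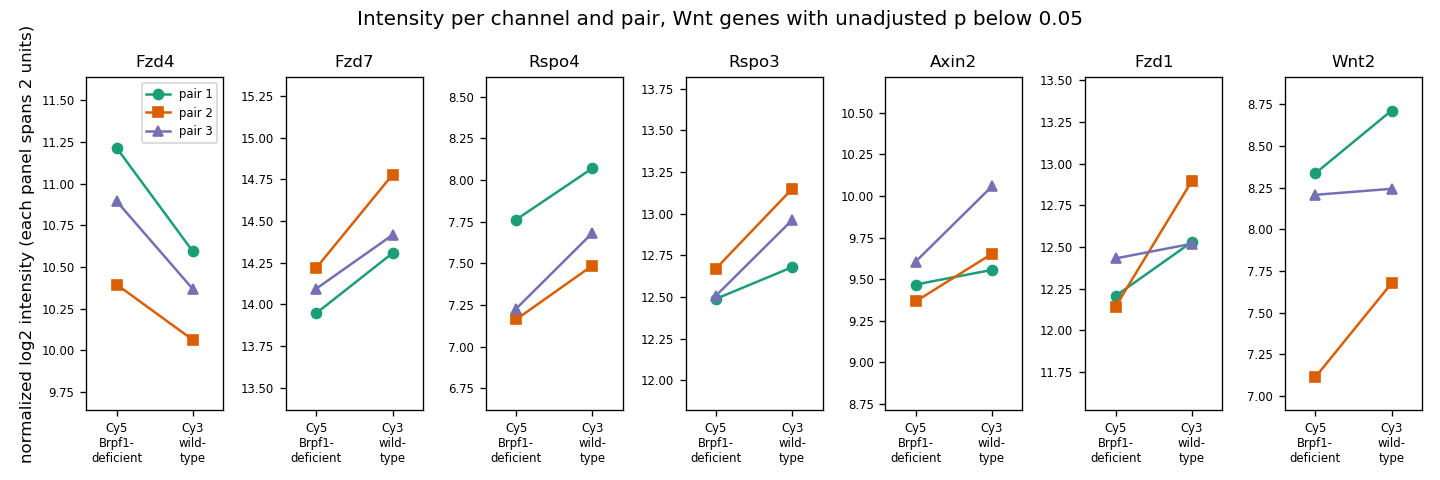
Normalized log2 intensity of the 7 Wnt genes with an unadjusted p below 0.05, in Cy5 (labelled Brpf1-deficient) at the left and Cy3 (labelled wild-type) at the right of each panel, with 1 line for each pair. Fzd4 is brighter in Cy5 in 3 of 3 pairs, and the other 6 genes are brighter in Cy3 in 3 of 3 pairs.

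Genes raised by the beta-catenin route lay on both sides of 0. Axin2, the scaffold most often used as a readout of that route, had log2 intensities of 9.47, 9.37 and 9.61 in Cy5 and 9.56, 9.65 and 10.06 in Cy3 in pairs 1, 2 and 3. Its ratios of -0.09, -0.29 and -0.45 were all below 0, with a mean of -0.27 ± 0.10 (95% interval -0.53 to -0.02, adjusted p = 0.271). A dimmer Axin2 probe gave 0.27, 0.44 and 0.05, and the mean of both was -0.01. That dimmer probe had a mean log2 intensity of 7.59 and was well above background on 2 of 3 arrays in each channel. In the authors' deposited table, turned to Cy5 over Cy3, the same probes stand at -0.27 and 0.66.

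Nkd1, which binds Dishevelled and blocks the signal, had ratios of -0.05, -0.32 and -0.29 (mean -0.22 ± 0.09, adjusted p = 0.314), and its second probe had a mean of -0.31. Its relative Nkd2 had -0.02, 0.30 and 0.05 (mean 0.11 ± 0.10). Notum, the enzyme that strips the lipid from Wnt ligands, had 0.30, -0.17 and 0.12 (mean 0.08 ± 0.12). Of these 4 feedback genes, 2 lay above 0 and 2 below, and 0 passed.

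Lef1, a transcription factor of the route that is also raised by it, had ratios of 0.07, 0.21 and -0.00 (mean 0.09 ± 0.09), and its second probe had a mean of 0.10. Tcf7, the other factor, had -0.25, -0.99 and 0.16 (mean -0.36 ± 0.22, adjusted p = 0.448), so that pair 2 set most of its mean, which was -0.04 without it. Its second probe had 0.02, -0.56 and 0.35, and the mean of both probes was -0.21.

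The windows before the transcription start of Axin2, Dkk1 and Fzd7 are shown because Axin2 and Dkk1 are textbook targets of the route and Fzd7 is the member with the lowest ratio. They are 250 bases each, read 5′ to 3′ on the gene's strand from RefSeq promoters of the GRCm38.p6 build, at chr11:108920099-108920348 (plus strand), chr19:30549497-30549746 (minus strand) and chr1:59481897-59482146 (plus strand). Capitals mark matches to 4 TCF and LEF heptamers, searched on both strands. The first is CTTTGAA, another reads CTTTGAT, the next reads CTTTGTA and the last reads CTTTGTT. They share their first letters and differ at the end, so a position matches at most 1 of them on a strand.
Axin2: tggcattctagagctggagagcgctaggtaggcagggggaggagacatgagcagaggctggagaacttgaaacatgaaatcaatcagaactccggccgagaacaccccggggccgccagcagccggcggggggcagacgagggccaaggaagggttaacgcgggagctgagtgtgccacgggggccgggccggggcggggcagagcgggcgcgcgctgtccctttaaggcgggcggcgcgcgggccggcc
Dkk1: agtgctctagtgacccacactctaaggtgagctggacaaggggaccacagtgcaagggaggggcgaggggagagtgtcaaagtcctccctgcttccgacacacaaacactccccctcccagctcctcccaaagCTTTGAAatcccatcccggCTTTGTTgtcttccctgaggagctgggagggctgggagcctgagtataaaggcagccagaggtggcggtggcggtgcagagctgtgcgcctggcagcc
Fzd7: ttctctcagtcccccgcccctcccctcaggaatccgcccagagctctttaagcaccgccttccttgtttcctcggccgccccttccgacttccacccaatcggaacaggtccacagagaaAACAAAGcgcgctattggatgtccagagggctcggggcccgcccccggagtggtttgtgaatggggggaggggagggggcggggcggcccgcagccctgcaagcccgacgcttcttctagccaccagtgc
Dkk1 holds 2 matches, 117 and 98 bases before its start, Fzd7 holds 1 on the opposite strand, 130 bases before its start, and Axin2 holds 0 in this window. Windows were on hand for 32 of the 49 members, and matches stood in 5 of their 39 windows (12.8%), those of Dkk1, Fzd7, Lef1, Wnt11 and Wnt5b, against 14.8% of 32851 windows of all genes. A match is a run of letters and not a shown binding site.

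Most ligands differed in sign between pairs 2 and 3. Of 19 ligand genes 17 were measured. Wnt3a, the main ligand of the tail bud, stayed near background in both channels of all arrays, and Wnt10b was well above it on 1 array in Cy3 only. Among the 17, 15 lay below 0 in pair 2 and 14 above 0 in pair 3, and 12 did both (70.6%, against 22.9% of all genes), while 0 went the opposite way (19.3%). The medians of the ligands were 0.05, -0.28 and 0.31 in pairs 1, 2 and 3.

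Wnt6, a ligand of surface ectoderm, had log2 intensities of 12.79, 12.51 and 13.35 in Cy5 and 12.70, 13.08 and 12.74 in Cy3, hence ratios of 0.08, -0.57 and 0.61 (mean 0.04 ± 0.23). Its neighbour on the chromosome, Wnt10a, had 0.37, -0.22 and 0.36, and both lay below 0 in pair 2 alone. The neighbours Wnt9b (0.57, -0.18 and 0.66, mean 0.35 ± 0.18, adjusted p = 0.381) and Wnt3 (0.05, -0.38 and 0.49) showed the same order of signs. The mean of Wnt9b was 0.61 without pair 2 (adjusted p = 0.0874), 0.24 without pair 1 and 0.20 without pair 3. Wnt4, a ligand of kidney and gonad that is also made in the decidua, had -0.17, -0.28 and 0.70, and a second Wnt4 probe 0.02, -0.17 and 0.83. Wnt7a had -0.05, -0.38 and 0.64, and Wnt7b 0.08, -0.51 and 0.31. For none of these did the mean differ from 0 by more than 2 SE.

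Wnt1, which marks the midbrain and the dorsal neural tube, had ratios of 0.20, -0.30 and 0.18 (mean 0.03 ± 0.13, 95% interval -0.30 to 0.35), and its second probe had a mean of 0.09. Wnt5a, which drives axis and limb outgrowth, had -0.29, -0.07 and 0.46 (mean 0.03 ± 0.16), and its relative Wnt5b 0.02, -0.21 and -0.32 (mean -0.17 ± 0.10). Wnt11, of the heart field and the tail bud, had 0.25, -0.04 and 0.49 (mean 0.23 ± 0.12, adjusted p = 0.382). These 4 genes spread across 0, and none passed.

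Wnt2, a ligand of the heart field and placenta, had ratios of -0.38, -0.56 and -0.04 (mean -0.33 ± 0.12, adjusted p = 0.281) and was the one ligand below 0 in all 3 pairs. Wnt8a, an early ligand of the primitive streak, had log2 intensities of 10.20, 7.95 and 8.10 in Cy5 and 8.68, 8.24 and 8.69 in Cy3. It was brighter in Cy5 in pair 1, by a log2 ratio of 1.52, and dimmer in the others (-0.29 and -0.58). Its mean was therefore 0.22 ± 0.42, and -0.43 without pair 1. Wnt8b, of the forebrain, had -0.64, 0.10 and 0.11, and its dimmer probe had a mean of 0.25, on the other side of 0. Wnt16 had -0.03, 0.60 and 0.06 (mean 0.21 ± 0.14), above 0 mainly in pair 2. Wnt2b had a mean of 0.18 ± 0.11 but had 0 arrays with Cy5 well above background, so no fold is given.

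The secreted antagonists had means below 0 in all 7 measured members (54.4% of all genes), by small amounts or with a wide spread, and none passed. The pairs disagreed, and 0 of the 7 had the same sign in all 3, against 43.4% of all genes. In pairs 1, 2 and 3 the medians of the antagonists were -0.10, -0.33 and 0.17. The median of their means was -0.09. Dkk4 stayed near background on all arrays. Sfrp4 had log2 intensities of 10.72, 8.70 and 11.23 in Cy5 and 10.89, 11.05 and 9.92 in Cy3, and so ratios of -0.17, -2.34 and 1.31. Its SD over pairs, 1.84, was above that of 99.9% of all genes, and its mean of -0.40 ± 0.67 (adjusted p = 0.779) has a 95% interval of -2.12 to 1.32. Dkk2 had the same order, with -0.39, -0.80 and 1.01 (mean -0.06 ± 0.35), and Dkk3, a divergent member of its family, had -0.10, -0.56 and 0.27 (mean -0.13 ± 0.17).

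Sfrp1 varied least of all members, with ratios of -0.05, 0.00 and -0.11 (mean -0.05 ± 0.08, 95% interval -0.26 to 0.15). Sfrp2 had -0.34, -0.09 and 0.17 (mean -0.09 ± 0.12), and Sfrp5, of the foregut and the venous pole of the heart, 0.27, -0.33 and -0.10 (mean -0.05 ± 0.13). Dkk1, which limits the signal in the head, had 0.17, -0.25 and -0.46 (mean -0.18 ± 0.14, adjusted p = 0.525), and its mean was -0.35 without pair 1 and -0.04 without pair 3. Sfrp1 alone had an SD under 0.1 in this group.

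**Figure D4:**
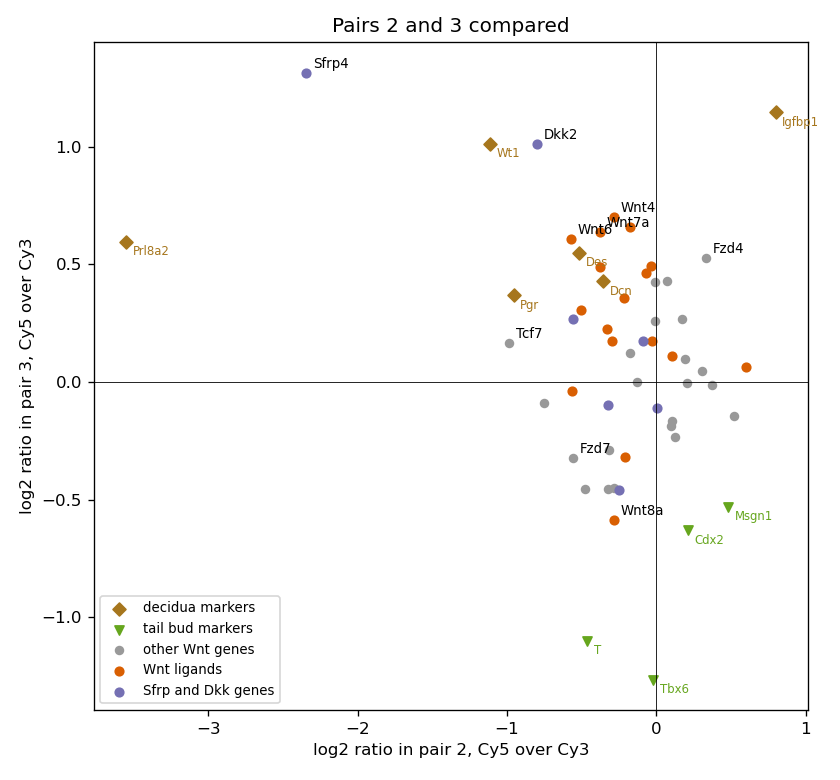
Log2 ratio of Cy5 over Cy3 in pair 3 against that in pair 2 for the 46 Wnt genes (ligands orange, Sfrp and Dkk genes violet, others grey) and for markers of decidua (brown diamonds) and tail bud (green triangles). Of 17 ligands 12 lie at the upper left, below 0 in pair 2 and above it in pair 3, as do 5 of 6 decidua markers, and 4 of 4 tail bud markers lie below 0 in pair 3.

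Most genes listed as decidua markers had the same signs in pairs 2 and 3 as most ligands and as Sfrp4 and Dkk2. Whether they mark only maternal tissue here was not tested. Of the 6 markers 5 lay below 0 in pair 2 and 6 above 0 in pair 3, and pairs 1, 2 and 3 had list medians of -0.52, -0.74 and 0.57. Prl8a2, a prolactin of the decidua, had -0.74, -3.55 and 0.60. Igfbp1, an insulin-like growth factor binding protein in the same list, was above 0 in all pairs, with 0.57, 0.80 and 1.15. The summed level of the list ranged from 11072 to 36409 in Cy5 and from 23976 to 46244 in Cy3, and Cy5 over Cy3 was 0.628, 0.239 and 1.52. Prl8a2 alone made up 27.3% to 70.3% of that sum in Cy5 and 63.1% to 76.5% in Cy3. The other 5 markers gave 0.708, 0.741 and 1.53, so the low value of pair 2 rests on Prl8a2. None of the 6 was below background, Pgr being well above it on 2 of 3 arrays in Cy5 and the rest on all. Trophoblast markers gave medians of -0.29, -0.73 and 0.51 over the 3 measured genes. Of these, Prl3d1 and Plac1 had the signs of the medians, whereas Ascl2 had 1.34, -0.73 and -0.36 in pairs 1, 2 and 3. Summed levels of the list were 6623 to 11402 in Cy5 and 5876 to 12945 in Cy3. Endothelium markers had list medians of -0.17, -0.16 and 0.29, and 3 of 4 lay below 0 in pair 2 and above it in pair 3. Of the somite markers 1 of 4 did both, and 0 did in the neural tube, heart, tail bud, primitive erythroid and yolk sac lists. The part of any of these tissues in the ligand and antagonist ratios was not tested.

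Tail bud markers had other signs in pair 3 and lay on both sides of 0 in pair 2. All 4 markers lay below 0 in pair 3, with a list median of 0.04, 0.10 and -0.87 in pairs 1, 2 and 3, and T, the tail bud transcription factor that Wnt3a maintains, had -0.13, -0.46 and -1.10. Their summed level was 13495 to 23334 in Cy5 and 18298 to 24034 in Cy3, and Cy5 over Cy3 was 1.04, 1.03 and 0.562. Of the 46 members, 28 lay above 0 in pair 3, as did 11509 of the 23555 genes tested. It was also the pair with the lowest ratio of Axin2 (-0.45), Dkk1 (-0.46), Wnt5b (-0.32), Wnt8a (-0.58) and Rspo4 (-0.45). Fzd3, Fzd5, Fzd9, Fzd10, Rspo1, Sfrp1 and Lef1 had their lowest ratio there too, and all other members in pair 1 or 2. The other feedback genes had theirs elsewhere, Nkd1 (-0.32) and Notum (-0.17) in pair 2 and Nkd2 (-0.02) in pair 1. Sp5, a direct target of the route, had 0.34, -0.38 and -0.84. The part of the amount of tail bud tissue in these ratios was not tested, and in whole embryos fewer cells of a type and less RNA per cell cannot be told apart.

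Of 66 further genes of the pathway, listed for their role in it, 62 were measured and 0 passed in limma over all genes. The tail bud markers T, Cdx2, Msgn1 and Tbx6 are among the 62, and T and Tbx6 lay below 0 in all 3 pairs. Below 0 were 41 of the 62 (66.1%, against 54.4% of all genes), with a median of -0.09. In all 3 pairs 18 were below 0 (29.0%, against 23.8% of all genes) and 4 above it (6.45%, against 19.7%). At an unadjusted p below 0.05 there were 9, each below 0, or 14.5% of the list, against 17.3% of all genes in either direction and 9.12% below 0. They include the planar polarity cadherins Celsr1 (-0.45 ± 0.10, adjusted p = 0.149) and Celsr3 (-0.63 ± 0.19, adjusted p = 0.22), Ror2, the receptor of Wnt5a (-0.29 ± 0.10), and the transcription factor Tcf7l2 (-0.49 ± 0.12, adjusted p = 0.179). Also among them are Lgr5, an R-spondin receptor (-0.39 ± 0.12), T (-0.56 ± 0.19, adjusted p = 0.255), and Csnk1a1, a kinase that marks beta-catenin for breakdown (-0.25 ± 0.09). Wls, which carries all Wnt ligands to the cell surface, had -0.37 ± 0.14 (adjusted p = 0.29), and Ctnnb1, which encodes beta-catenin, -0.15 ± 0.14. Porcn, the enzyme that adds the lipid, lay on the other side at 0.49 ± 0.24, with 0.70, 1.00 and -0.22 in pairs 1, 2 and 3.

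The 7 Wnt genes with the smallest p kept their side of 0 under each other way of processing that gave them a value. There were 12 for Fzd4, Fzd7, Rspo3, Axin2 and Fzd1 and 11 for Wnt2 and Rspo4, which a stricter filter on dim probes left out. Several of these ways could not turn a sign. Each of the 7 genes had the same sign in every pair, so leaving out a pair could not. The filters on dim probes and on bright genes left the ratios as they were. Fzd7 and Axin2 came close to 0 when both probes of a gene were averaged. Their dimmer probes alone, which lay above 0, were not among the alternatives. Fzd4 ranged from 0.37 to 0.57 and Rspo3 from -0.47 to -0.32. Wnt2 ranged from -0.61 to -0.21 and Fzd1 from -0.54 to -0.21. The authors' deposited table lists 44 of the 62 Wnt probes and 35 of the genes, with a smallest adjusted p of 0.342, that of Fzd4 at 0.55 when turned to Cy5 over Cy3.

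**Figure D5:**
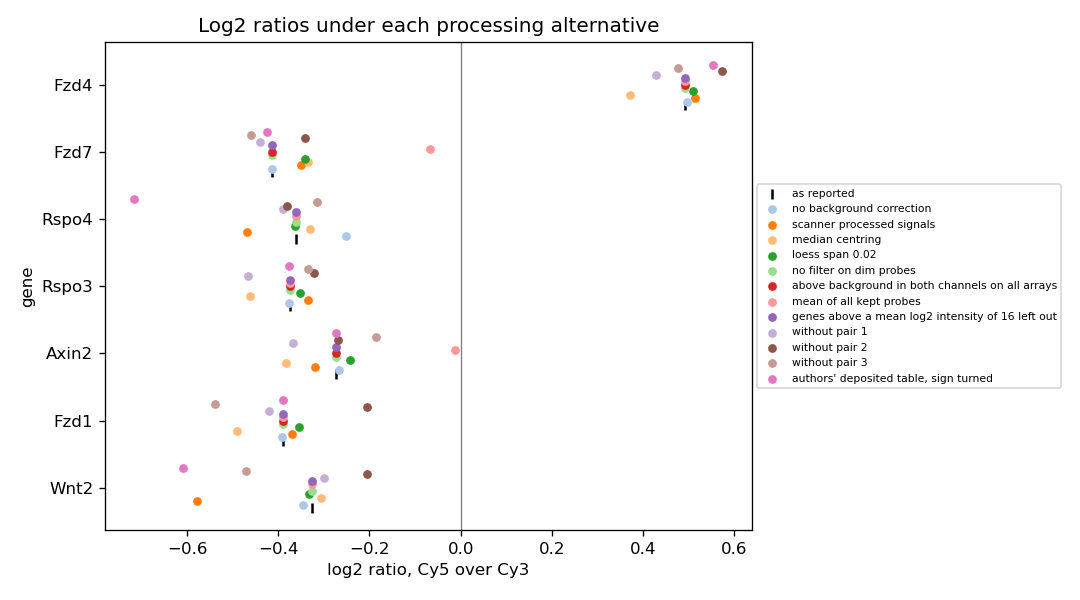
Log2 ratio of Cy5 over Cy3 of the 7 Wnt genes with an unadjusted p below 0.05, as reported (black tick) and under each processing alternative (coloured points). All points of Fzd4 lie right of 0 and all points of the other 6 left of it, with Axin2 at -0.01 and Fzd7 at -0.07 when the probes of a gene are averaged.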

How the data were processed

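Gene expression was measured on 3 Agilent arrays, each with Brpf1-deficient RNA in Cy5 and wild-type RNA in Cy3. Amplification started from 350 ng of RNA, per the labels' protocols. Feature Extraction 10.7.3.1 gave the spot values, and the arrays share 1 slide and 1 scan time, per the file headers, so no batch could be tested. Per the file headers, the deposited intensity values are linear median signals of spots and their background, beside the scanner's processed signals and a log10 ratio. The authors' deposited table gives log2 ratios, p-values and scores (moderated t and log odds). Limma is named in the submitters' processing notes, with no settings.

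Background was corrected with normexp (offset 50), and ratios were normalized by loess (span 0.3), in which controls and outliers had weight 0. Spots of a probe were averaged. Probes well above background in 1 channel on at least 2 arrays, by at least 0.5 of their spots, were kept (31603), and the brightest stood for its gene, which gave 23555 genes. Names came from RefSeq accessions (27656 of 29123 matched 1 gene, GRCm38.p6). The mean ratio was tested against 0 with limma 3.58.1 in R 4.3.3 (lmFit and eBayes, two-sided, Benjamini-Hochberg over all genes, threshold 0.05), and the test was tried on simulated data. Intensities per channel are after loess and Aquantile normalization. Summed marker levels are sums of these on the linear scale.

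The members and lists were chosen with earlier results of these data known. Genes given in full are those called, the 3 of each role with the smallest p, the 8 genes named singly in the family's definition, 10 known for their place in this stage, and those whose probes lie 0.3 or more apart on both sides of 0. Of the further pathway genes, the 6 with the smallest p were taken. Others were chosen after their values were seen. The number of arrays limits the precision.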

Additional observations from a re-analysis of the deposited data

How the results depend on the processing

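None of the 46 members passed in limma under any of the alternatives run: no background correction, scanner processed signals, median centring, a loess span of 0.02, no filter on dim probes (49 members), a stricter one (42 members), the mean of all probes, bright genes left out, the authors' deposited table (29 members), or 1 pair left out. At an unadjusted p below 0.05 there were 2 to 10. The median of the members ranged from -0.07 to 0.10. Over all genes 326 passed, 651 with median centring and 201 with the mean of all probes. None passed with processed signals (3453 at an unadjusted p below 0.05), a span of 0.02 (3508), genes above a mean log2 intensity of 16 left out (3350), the authors' deposited table (3147) or without any 1 pair (0 to 0; 2145 to 3831). Of 30 named members, 20 kept their sign throughout, and 16 of 347 values turned it. With all pairs kept, Sfrp5 turned to 0.0120 with processed signals and Wnt8b to 0.0539 with the mean of its probes. Median centring turned Nkd2 (-0.0189), Notum (-0.0462), Wnt1 (-0.11) and Wnt5a (-0.0569). The other turned values came from leaving out 1 pair. Leaving out 1 pair moved 23 of the 30 means by over 1.5 times or across 0, all but those of Fzd4, Fzd7, Rspo3, Rspo4, Axin2, Lrp5 and Nkd1. The ranges of those that crossed 0 were -0.215 to 0.0431 for Sfrp2, -0.0256 to 0.213 for Notum, -0.0594 to 0.187 for Wnt1, -0.43 to 0.62 for Wnt8a, -0.27 to 0.11 for Wnt8b, -0.330 to 0.0823 for Dkk3, -0.211 to 0.0884 for Sfrp5, -0.18 to 0.20 for Wnt5a and -0.106 to 0.0353 for Fzd10. The cause was not tested. The test is itself paired, since each ratio sets 2 RNAs of 1 pair against each other, and with 1 group of ratios no further block could be fitted. Signal over background limits Wnt2b, Wnt16, Rspo4 and Wnt2, which were not well above background on all arrays.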
